A study of Mus musculus with 7 samples.

Results

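The miRNAs described here are 6 mature products of genes that lie inside the mouse Hox clusters: mmu-miR-10a-5p, mmu-miR-10b-5p, mmu-miR-10a-3p, mmu-miR-10b-3p, mmu-miR-196a-5p and mmu-miR-196b-5p (the mouse prefix mmu is left out from here on). They were chosen by name, and all 6 were found among the 1084 entries of the deposited count table. The table comes from small RNA sequencing of adipose tissue vesicles, small particles enclosed by membrane that cells shed and that carry RNA. The donors were male C57BL/6J mice. Mice were fed chow (4 libraries, Chow 1 to Chow 4) or a high-fat diet (HFD, 3 libraries, HFD 1 to HFD 3), with 12 weeks given in the series text, and no genetic change, other agent or age is named. The labels name neither the fat depot nor the number of animals behind a library, so a p-value here weighs a difference only against the variation among libraries, part of which may be technical.

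Hox genes encode transcription factors that give cells their position along the body axis, and in each cluster the order of the genes follows the order of their expression from head to tail. The miR-10 genes sit near group 4 Hox genes, and the miR-196 genes lie further towards the posterior end, between or within genes of groups 9, 10 and 13. Fat depots keep depot-specific Hox expression in the adult. In mice miR-196a directs cleavage of Hoxb8 RNA in embryos and has been reported to favour brown-like fat cells by lowering Hoxc8, and in human breast cancer cells miR-10b lowers HOXD10. The 5p strand is the guide that normally enters the silencing complex in both families, and the 3p strand is the partner that is mostly degraded.

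The mature sequences (RefSeq, GRCm38.p6, all 6 matched) are shown because their small differences decide what a count of each can mean. Capitals mark the seed, bases 2 to 8 from the 5′ end.
miR-10a-5p: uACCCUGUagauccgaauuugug
miR-10b-5p: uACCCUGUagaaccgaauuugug
miR-10a-3p: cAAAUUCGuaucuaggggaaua
miR-10b-3p: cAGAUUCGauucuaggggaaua
miR-196a-5p: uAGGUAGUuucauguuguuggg
miR-196b-5p: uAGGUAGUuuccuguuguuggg
The 5p strands of miR-10a and miR-10b share the seed ACCCUGU and differ at 1 of 23 bases, written U12A from miR-10a to miR-10b with positions counted from the 5′ end. The strands of miR-196a and miR-196b share the seed AGGUAGU and differ at 1 of 22 bases, A12C. The 3p strands of miR-10a and miR-10b differ at 3 of 22 bases (A3G, U9A and A10U), and the first of these lies in the seed, so their seeds are not the same. Among 1679 named mature mouse miRNAs in RefSeq, only miR-10a-5p and miR-10b-5p had the first of these seeds and only miR-196a-5p and miR-196b-5p the second, while the seed of each 3p strand had no other holder. The counting rule for reads that match 2 entries is not given in the sources used here, so the split of the 5p reads between the a and b entries rests on a single base.

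The precursors show where the arms come from, with the mature arms in capitals.
Mir10a, chr11:96317165-96317274, plus strand: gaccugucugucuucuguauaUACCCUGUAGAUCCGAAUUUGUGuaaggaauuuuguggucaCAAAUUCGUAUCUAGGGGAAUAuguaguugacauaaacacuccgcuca
Mir10b, chr2:74726070-74726137, plus strand: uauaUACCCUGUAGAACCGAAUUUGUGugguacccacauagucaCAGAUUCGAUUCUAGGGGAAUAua
Mir196b, chr6:52230081-52230165, minus strand: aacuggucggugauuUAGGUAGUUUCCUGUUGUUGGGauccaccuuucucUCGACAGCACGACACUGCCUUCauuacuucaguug
In the GENCODE M21 annotation of the same build, Mir10a lies in the HoxB cluster outside any other gene, 992 bases before Hoxb4 and 11043 bases after Hoxb5. Mir10b lies in the HoxD cluster within introns of the annotated Hoxd3 and Hoxd4 genes. Mir196b lies in the HoxA cluster within Hoxa9, where it overlaps an annotated exon, and 1031 bases from Hoxa10. The mature miR-196a-5p is made from 2 genes with the same mature sequence, Mir196a-1 (chr11:96265164-96265265, between Hoxb13 and Hoxb9, outside other genes) and Mir196a-2 (chr15:102973350-102973434, within an intron of the annotated Hoxc5 gene, between Hoxc10 and Hoxc9), so its count cannot be assigned to HoxB or HoxC. Mir196a-1 and Mir10a lie in the same cluster, 51899 bases apart.

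**Figure D1:**
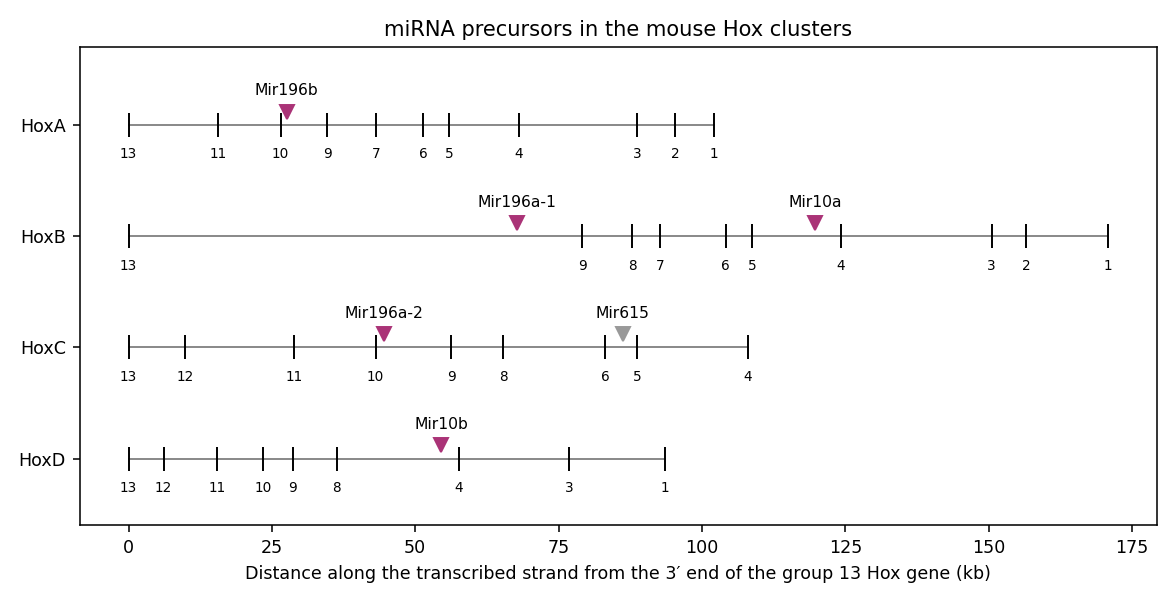
The 4 mouse Hox clusters, drawn from GENCODE M21 along the transcribed strand, with distance in kb from the 3′ end of the group 13 gene on the horizontal axis. Ticks mark the annotated 3′ end of each Hox gene with its group number below, and triangles mark the miRNA precursors (purple for genes of the 6 miRNAs, grey for Mir615), with both Mir10 genes nearer to the 3′ end of a group 4 gene than to that of any other Hox gene, and the Mir196 genes nearer to group 9 and 10 genes.

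Library totals ranged from 48840 counts in Chow 3 and 180694 in Chow 2 to 5941955 in HFD 3, with 1825488 to 2294878 in the other libraries. A count of 0 allows up to 3 counts, or 61.4 CPM (a count set relative to its library total) in Chow 3, 16.6 in Chow 2 and 0.505 to 1.64 in the others, and such floors and the intervals below cover counting error only, since PCR reads are not independent molecules. Chow 2 and Chow 3 also lacked values for 485 entries in the separate Chow table, which the combined table holds as 0, but none of the 6 miRNAs was among them. All 8 adipocyte markers were detected in every library, and their summed share of the counts was 44.7% to 64.8% in Chow and 24.0% to 31.1% in HFD, most of it miR-148a-3p, a miRNA abundant in fat. Over the whole table, 11 of 385 tested miRNAs passed in edgeR (2.86%, 8 higher and 3 lower in HFD), a count that was 32 without Chow 1, 4 without Chow 2, 6 without Chow 3, 1 without Chow 4, 0 without HFD 2 (57 at an unadjusted p under 0.05), 1 without HFD 3, and 0 of 403 without Chow 2 and Chow 3 (95 at an unadjusted p under 0.05).

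The guide strands of miR-10 were among the most abundant miRNAs of the vesicles, and the miR-196 strands were rare. The 6 miRNAs together held 11.3%, 10.1%, 5.72% and 19.5% of the counts in Chow 1 to Chow 4 and 11.3%, 13.3% and 16.8% in HFD 1 to HFD 3, of which at least 99.4% was miR-10a-5p and miR-10b-5p in every library. The lowest and the highest share both belonged to Chow libraries, so the HFD range lay inside the Chow range. The Chow mean was 11.7% ± 5.76 (SD, n = 4), and the HFD mean was 13.8% ± 2.79 (SD, n = 3). Of the counts other than miR-148a-3p, which held 39.7% to 58.0% of the counts in Chow and 21.0% to 26.4% in HFD, the Chow mean was 22.6% ± 8.43 (SD, n = 4), against 18.0% ± 3.01 (SD, n = 3) for HFD. The order of the means therefore depended on whether miR-148a-3p was in the total, and with either total the groups overlapped.

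miR-10b-5p, from the HoxD cluster, was the most abundant of the 6 in every library. It ranked between the second and the fifth place among all entries. Its level, in CPM scaled to TMM-normalised library sizes (normalised CPM), was 90694, 49755, 35665 and 122482 in Chow 1 to Chow 4 and 56285, 64966 and 86446 in HFD 1 to HFD 3. Chow 2 and Chow 3, the shallowest libraries, were the lowest, and Chow 1 and Chow 4 the highest, on either side of all HFD libraries. In edgeR its log2 fold change, HFD against Chow, was -0.11 (SE 0.40, 95% interval -0.99 to 0.77, adjusted p = 0.909). Without Chow 2 and Chow 3 it was -0.63 (adjusted p = 0.222 in the same edgeR test).

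miR-10a-5p, from the HoxB cluster, followed the same order of libraries. Its normalised CPM were 67781, 35386, 25554 and 90526 in Chow 1 to Chow 4 and 46666, 47179 and 66813 in HFD 1 to HFD 3. Again the Chow libraries enclosed the HFD libraries. The log2 fold change was -0.03 (SE 0.41, 95% interval -0.93 to 0.87, adjusted p = 0.974 in edgeR), and -0.57 with Chow 2 and Chow 3 left out (edgeR adjusted p = 0.273). Both signs turned positive with library size as the only scaling, at 0.28 for miR-10a-5p and 0.20 for miR-10b-5p, where the median of all tested miRNAs was itself 0.31, against -0.02 with TMM.

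The partner strands gave less than 1 read for every 100 guide reads. miR-10a-3p had 541, 193, 176 and 289 normalised CPM in Chow 1 to Chow 4 and 331, 350 and 446 in HFD 1 to HFD 3. Chow 1 was the highest of all libraries and the other Chow libraries were below every HFD library. Its log2 fold change was 0.29 (SE 0.47, 95% interval -0.75 to 1.32, adjusted p = 0.788 in edgeR). It was 0.76 without Chow 1 and -0.14 with Chow 2 and Chow 3 left out. miR-10b-3p had 287, 136, 88.1 and 292 normalised CPM in Chow 1 to Chow 4 and 258, 243 and 389 in HFD 1 to HFD 3, with 4 counts in Chow 3. All HFD libraries were above Chow 2 and Chow 3, and HFD 3 was also above Chow 1 and Chow 4. The log2 fold change was 0.50 (SE 0.49, 95% interval -0.57 to 1.56, adjusted p = 0.615 in edgeR), and 0.03 with Chow 2 and Chow 3 left out.

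The miR-196 guides were found at 4 to 229 counts (miR-196a-5p) and 0 to 173 counts (miR-196b-5p). miR-196a-5p had 67, 8, 4 and 63 counts in Chow 1 to Chow 4 and 51, 54 and 229 in HFD 1 to HFD 3, which is 44.5, 37.6, 88.1 and 30.0 normalised CPM in Chow and 23.8, 25.1 and 35.4 in HFD. The highest level rests on the 4 counts of Chow 3, and the groups overlapped. Its log2 fold change was -0.62 (SE 0.52, 95% interval -1.76 to 0.52, edgeR adjusted p = 0.528). miR-196b-5p had 74, 3, 0 and 88 counts in Chow 1 to Chow 4 and 9, 38 and 173 in HFD 1 to HFD 3, or 49.1, 14.1, 0 and 42.0 normalised CPM in Chow and 4.20, 17.7 and 26.8 in HFD. In Chow 2 and Chow 3 these counts were at or under the 3-count floor, and HFD 1 was far below HFD 2 and HFD 3. The log2 fold change was -1.03 (SE 0.71, 95% interval -2.57 to 0.52, adjusted p = 0.414 in edgeR). It was -0.40 without HFD 1 and -1.45 with Chow 2 and Chow 3 left out (edgeR adjusted p = 0.212).

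**Figure D2:**
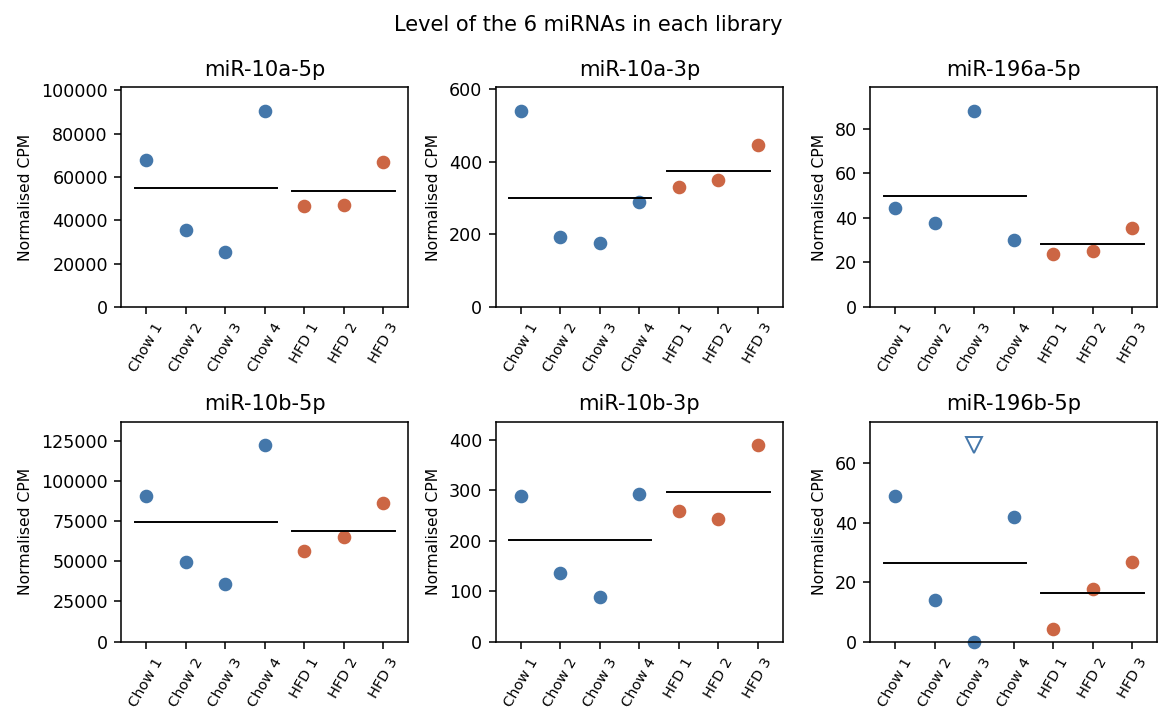
Normalised CPM of the 6 miRNAs in each library on linear axes that start at 0 (blue for Chow, orange for HFD, 1 point per library, black line for the group mean). The open triangle shows the 3-count floor of Chow 3 for miR-196b-5p, where the count was 0, and in every panel the points of the diets overlap.

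None of the 6 passed the threshold in edgeR, and none did in DESeq2, in limma-voom or in any other setting tried, against 2.86% of all tested miRNAs in edgeR. None had an unadjusted p under 0.05 in edgeR, against 24.2% of the tested miRNAs. The diets' libraries overlapped for all 6, and of the 385 tested miRNAs 22.3% did not overlap. Only 6 miRNAs are too few to be set apart from these shares. Of the fold changes 4 were negative and 2 positive, with a median log2 fold change of -0.07, beside -0.02 over all tested miRNAs. The intervals are wide, reaching a log2 fold change of -2.57 for miR-196b-5p and -0.99 for miR-10b-5p, so a missed threshold does not show equal levels.

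**Figure D3:**
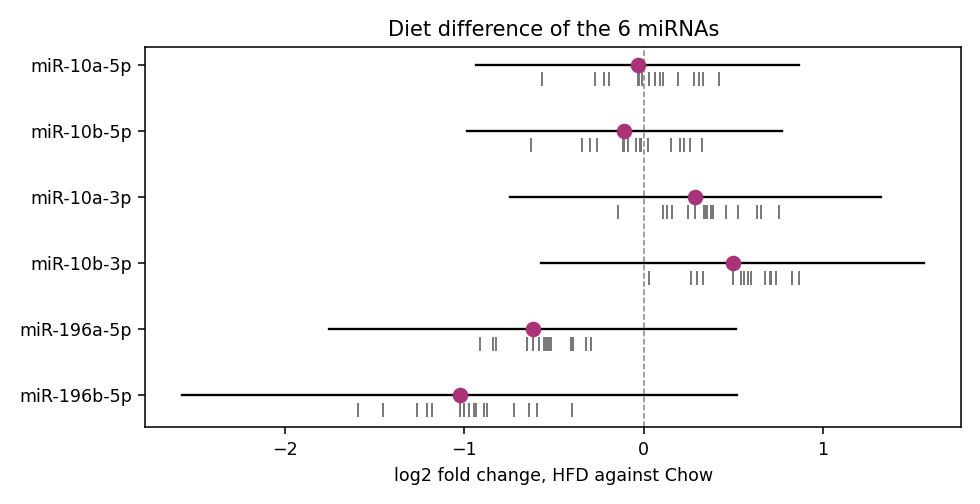
The log2 fold change of each miRNA, HFD against Chow, from edgeR (purple points) with its 95% interval (black lines), and below it the value under each alternative setting (grey ticks). All 6 intervals include 0, from -2.57 to 0.52 for miR-196b-5p to -0.57 to 1.56 for miR-10b-3p.

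The a and b genes of each family lie in different Hox clusters, but near the same or adjacent groups of Hox genes. A ratio between them therefore does not contrast head with tail, and position along the body axis was not tested. The ratio of the a to the b paralog does not depend on the scaling of a library. For the miR-10 guides it varied little, though by more than counting error. miR-10a-5p made up 42.8%, 41.6%, 41.7% and 42.5% of the miR-10a-5p and miR-10b-5p counts in Chow 1 to Chow 4 and 45.3%, 42.1% and 43.6% in HFD 1 to HFD 3. HFD 1 was the highest and HFD 2 lay within the Chow range, so the groups overlapped. The exact (Clopper-Pearson) 95% interval was narrowest in HFD 3, at 43.5% to 43.7%, and widest in Chow 3, at 39.9% to 43.6%. Those of HFD 1 (45.1% to 45.5%) and HFD 2 (41.9% to 42.3%) do not meet. Chow averaged 42.1% ± 0.583 (SD, n = 4), and HFD averaged 43.7% ± 1.63 (SD, n = 3). On the log2 scale, with 0.5 added to both counts, HFD exceeded Chow by 0.09 (exact two-sided permutation p = 0.114, adjusted p = 0.286 over 5 ratios). The difference was 0.04 without HFD 1 and 0.14 without HFD 2 (exact permutation p = 0.0667, the smallest possible there, adjusted p = 0.167).

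The constancy of this ratio stood against large changes of level. Between Chow 3 and Chow 4, miR-10b-5p went from 35665 to 122482 normalised CPM while the share of miR-10a-5p went from 41.7% to 42.5%. Over the 7 libraries the log2 ratio had an SD of 0.077, and 0.075 without Chow 2 and Chow 3. Among all 8128 pairs of the 128 tested miRNAs with a mean of at least 200 normalised CPM, where the median SD was 1.02, only 9 pairs had a smaller one. Those 9 were pairs among miR-122-5p and miR-122b-3p, miR-142a-3p and miR-142b, miR-1a-3p and miR-1b-5p, the miR-24 and miR-3074 entries, miR-9-5p and miR-9b-3p, and the miR-486a and miR-486b entries. In 2 of them, miR-122-5p with miR-122b-3p and miR-142a-3p with miR-142b, both entries held the same value in every library (SD 0). Such a pair is 1 set of values under 2 names, not 2 separate measurements. The other pairs were also close to identical, with an SD from 0.0018 (miR-1a-3p with miR-1b-5p) to 0.040 (miR-486a-3p with miR-486a-5p). Whether they are separate measurements was not tested. How far reads shared between the miR-10a and miR-10b entries contribute to the constancy was not tested.

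The 3p strands, which differ at more positions, gave another ratio. miR-10a-3p made up 65.3%, 58.6%, 66.7% and 49.8% of the miR-10a-3p and miR-10b-3p counts in Chow 1 to Chow 4 and 56.2%, 59.0% and 53.5% in HFD 1 to HFD 3. It exceeded miR-10b-3p in every library except Chow 4, while miR-10a-5p was below miR-10b-5p in all 7, so the paralogs stand in the opposite order in the partner strands. Chow 1 and Chow 4 lay on either side of the HFD libraries, with intervals of 62.6% to 67.9% and 47.0% to 52.6% that do not meet, while Chow 3 rests on 12 counts (34.9% to 90.1%). The SD of the log2 ratio over the 7 libraries was 0.35. HFD minus Chow was -0.22 (exact two-sided permutation p = 0.4, adjusted p = 0.607).

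For miR-196 the ratio was loose and rests on few counts. miR-196a-5p made up 47.5%, 72.7%, 100% and 41.7% of both guides in Chow 1 to Chow 4 and 85.0%, 58.7% and 57.0% in HFD 1 to HFD 3. Chow 2 and Chow 3 held only 11 and 4 counts of both, with intervals of 39.0% to 94.0% and from 39.8% upward. Among the deeper libraries the share was below 50% in Chow 1 and Chow 4 and above it in the HFD libraries, but the intervals include 50% in Chow 1 (39.1% to 56.1%), Chow 4 (33.8% to 50.02%) and HFD 2 (47.9% to 68.9%). In HFD 1 there were 51 counts against 9. The log2 ratio differed by 0.16 between the diets (exact two-sided permutation p = 0.914, adjusted p = 0.914), by 1.43 without Chow 2 and Chow 3 (exact p = 0.3, where 0.1 is the smallest possible) and by -0.50 without HFD 1, so its direction depended on single libraries. Reads of the miR-10 guides outnumbered those of the miR-196 guides by 695 to 2958 in Chow libraries and by 2465 to 3674 in HFD libraries.

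**Figure D4:**
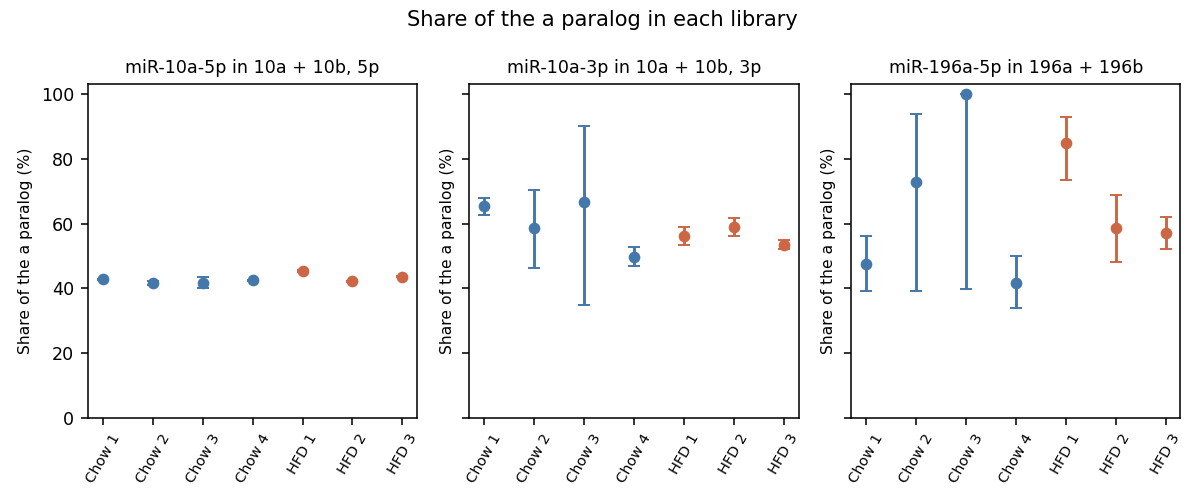
Share of the a paralog in the summed counts of both paralogs for each library, in percent, with exact 95% intervals (blue for Chow, orange for HFD). The miR-10 guides stay between 41.6% and 45.3%, the miR-10 partner strands range from 49.8% to 66.7%, and the miR-196 guides from 41.7% to 100%.

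Of the 5 ratios compared, that of the arms of miR-10b was the only one in which the diets did not overlap. How often arm ratios of other miRNAs separate the diets was not examined. By level, 22.3% of the tested miRNAs did not overlap. miR-10b-3p made up 0.316%, 0.273%, 0.246% and 0.238% of the reads of both miR-10b arms in Chow 1 to Chow 4 and 0.457%, 0.372% and 0.448% in HFD 1 to HFD 3. Every HFD library was above every Chow library, with the smallest gap between Chow 1 and HFD 2. There were between 316 and 420 guide reads for each partner read in Chow and between 218 and 268 in HFD. The mean log2 ratio of miR-10b-5p to miR-10b-3p was 8.50 ± 0.17 (SD, n = 4) for Chow, against 7.88 ± 0.16 (SD, n = 3) for HFD, a difference of -0.62. The exact two-sided permutation test gave p = 0.0286, the lower limit with 35 assignments. The p adjusted over the 5 ratios was 0.143, above the threshold of 0.05. With 0.0286 as the smallest p, this ratio could not pass the adjustment unless another ratio also had a p under 0.05. Chow 3 had 4 counts of miR-10b-3p and Chow 2 had 29. Their intervals for the 3p share, 0.0672% to 0.630% and 0.183% to 0.392%, reach into the HFD range, and those of Chow 1 (0.287% to 0.347%) and HFD 2 (0.341% to 0.405%) overlap as well. Without Chow 2 and Chow 3 the difference was -0.63 (exact p = 0.1, the lower limit for 2 libraries against 3), and with 5 rather than 0.5 added to both counts it was -0.32 (exact permutation p = 0.429).

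The arms of miR-10a showed no such separation. miR-10a-3p made up 0.792%, 0.542%, 0.685% and 0.319% of the reads of both miR-10a arms in Chow 1 to Chow 4 and 0.705%, 0.736% and 0.664% in HFD 1 to HFD 3. Chow 4 was well below all other libraries and Chow 1 above them. The log2 ratio of miR-10a-5p to miR-10a-3p differed by -0.32 between HFD and Chow (exact two-sided permutation p = 0.486, adjusted p = 0.607), and by -0.04 without Chow 4. Whether the arm ratios of miR-10a and miR-10b responded differently to diet was not tested.

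Summed shares of the adipocyte, leukocyte, stromal and smooth muscle, endothelial and hepatocyte markers did not overlap between the diets in the same libraries. Those of the erythroid, striated muscle, neural, epithelial, and testis and epididymis markers overlapped. All 8 leukocyte markers were detected in each HFD library and at least 6 in each Chow library. Their summed share was 0.369% to 0.994% in Chow and 1.28% to 2.46% in HFD. Most of it was miR-146a-5p (3569 to 7215 normalised CPM in Chow, 8992 to 14116 in HFD). That miRNA did not pass (adjusted p = 0.0642 in edgeR), and 4 of the 8, not including it, rose in edgeR. The summed share in Chow and HFD was 1.09% to 2.71% and 0.667% to 0.799% for 7 stromal and smooth muscle markers (1 fell), 0.20% to 0.681% and 0.145% to 0.164% for 5 endothelial markers (1 fell), and 0.0183% to 0.172% and 0.0121% to 0.0151% for the hepatocyte marker miR-122-5p, which did not pass. Of the 8 adipocyte markers named above, 2 fell, miR-148a-3p and miR-143-3p. The stromal and smooth muscle marker that fell is the same miR-143-3p, the most abundant of that list in Chow. Of the tested stromal and smooth muscle markers, 5 had a negative and 2 a positive fold change. The endothelial marker that fell was miR-126a-3p, and the tested endothelial markers were split, 2 positive and 2 negative. All 10 testis and epididymis markers had a positive fold change and none passed (median log2 fold change 1.89), with overlapping shares of 0.0542% to 0.109% and 0.0924% to 0.373%. The part of these cell types in the miR-10b arm ratio was not tested, and in bulk vesicles fewer vesicles from a cell type cannot be told apart from less of a miRNA per vesicle.

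**Figure D5:**
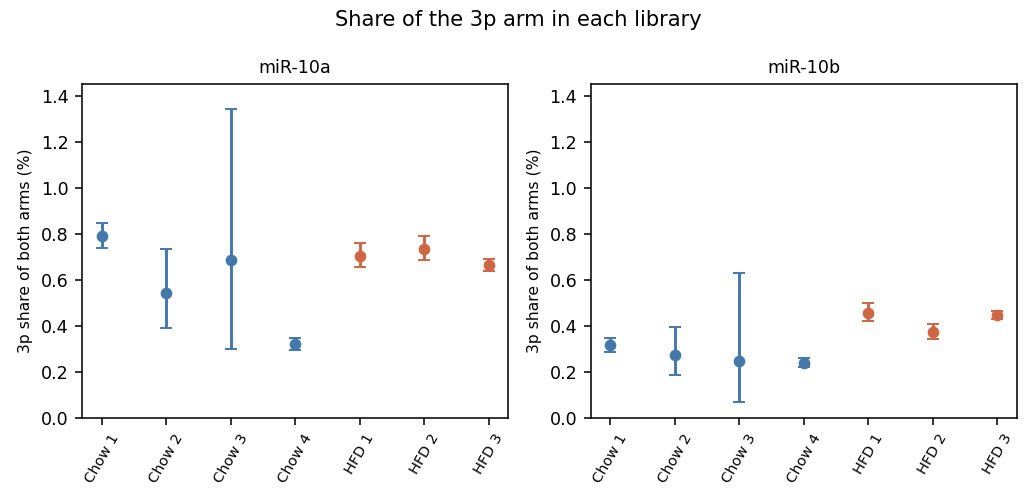
Share of the 3p strand in the reads of both arms of miR-10a (left) and miR-10b (right) for each library, in percent, with exact 95% intervals (blue for Chow, orange for HFD). For miR-10b the HFD libraries lie between 0.372% and 0.457% and the Chow libraries between 0.238% and 0.316%, and for miR-10a the diets overlap.

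Other miRNAs of the Hox clusters were scarcer than the miR-10 guides. Of 5 further mature entries, 2 passed the filter on low counts and neither passed the test. miR-615-3p, from an intron of Hoxc5 in the HoxC cluster, had 33.8, 757, 419 and 307 normalised CPM in Chow 1 to Chow 4 and 120, 124 and 227 in HFD 1 to HFD 3. Chow 1 was the lowest library and the other Chow libraries lay above all HFD libraries, with a log2 fold change of -1.25 (SE 0.77, adjusted p = 0.340 in edgeR). The partner strands distinguish the 2 genes of miR-196a. miR-196a-1-3p, from HoxB, had 9, 1, 0 and 21 counts in Chow and 21, 13 and 39 in HFD (log2 fold change -0.01, SE 0.51), while miR-196a-2-3p, from HoxC, was at 0 in all 7 libraries. In HFD 3, the deepest library, a count of 0 allows a share of up to 5.05e-05% of the counts, and it does not show that the HoxC gene gave no miR-196a-5p, since the 2 precursors need not keep their partner strands equally. miR-196b-3p had 2 counts in Chow 1 and 0 elsewhere, and no value was listed for it or for miR-196a-2-3p in Chow 2 and Chow 3. miR-615-5p had at most 5 counts.

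The wider miR-10 family includes miR-99, miR-100 and miR-125, whose genes lie outside the Hox clusters. miR-100-5p and miR-99a-5p share runs of 11 and 10 bases with miR-10a-5p (guagauccgaa and guagauccga), and miR-99b-5p shares 10 with miR-10b-5p (guagaaccga), but their seed, ACCCGUA, is another. All 5 relatives were tested and none passed, 4 of them with a negative fold change (median log2 fold change -0.20, beside -0.02 over all tested miRNAs). For 1 of the 5, miR-100-5p, the diets did not overlap, a share near the 22.3% of all tested miRNAs. Its levels were 3745 to 7399 normalised CPM in Chow and 2318 to 2933 in HFD, with a log2 fold change of -1.06 (SE 0.36, adjusted p = 0.113 in edgeR).

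Likeness of pattern was described by Pearson's r of log2 normalised CPM over the 7 libraries, which share depth and composition, among miRNAs with a mean of at least 200 normalised CPM. The miRNA most like miR-10b-5p was miR-10a-5p (r = 0.993, and 0.987 without Chow 2 and Chow 3). Outside the 6, the nearest to miR-10b-5p were miR-204-5p (0.878), miR-141-3p (0.844) and miR-25-3p (0.824), with 0.797, 0.581 and 0.533 without Chow 2 and Chow 3. The nearest to miR-10a-5p were miR-141-3p (0.883), miR-182-5p (0.857) and miR-186-5p (0.840), with 0.614, 0.615 and 0.402 without these libraries, and miR-182-5p had no value in Chow 2 and Chow 3. The nearest to miR-196b-5p over 7 libraries were miR-10b-5p (0.885) and miR-10a-5p (0.859), followed by miR-155-5p (0.819), miR-181a-5p (0.811) and miR-204-5p (0.808). With the 2 shallow libraries left out the order turned, with 0.936 for miR-204-5p and 0.895 for miR-181a-5p above 0.859 for miR-10b-5p, 0.789 for miR-10a-5p and 0.269 for miR-155-5p. The value of miR-10a-3p with miR-10a-5p went from 0.724 to 0.0087.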

How the data were processed

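Small RNA was sequenced from adipose tissue vesicles in 4 Chow and 3 HFD libraries. The authors deposited whole read counts for each mature miRNA, without normalization, per the file headers. The submitters' processing notes name Bowtie without a version, and for the counting step a program, build, miRNA release and filters were not given in the sources used here. Values came from the combined table (1084 entries, 46 of them numbered predictions with at most 0.0051% of any library's counts), and the separate tables held the same values apart from blanks. It had 0 value columns that belong to no sample.

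Counts were fitted with edgeR 4.0.16 in R 4.3.3 (quasi-likelihood F test, TMM, filterByExpr, diet as the only term, Benjamini-Hochberg adjustment over 385 miRNAs, threshold 0.05), with SE from the F statistic. Normalised CPM use TMM-scaled library sizes, and likeness a prior count of 2. The 5 log2 ratios (0.5 added to both counts) were compared by an exact two-sided permutation test over 35 assignments. There 0.0286 is the smallest p, so no ratio could pass the adjustment unless another also had a p under 0.05. Shares carry exact 95% binomial intervals (SciPy 1.17.1). Alternatives were other scalings and filters, DESeq2 1.42.0, limma-voom (limma 3.58.1), a block for the replicate number, the separate tables, other pseudocounts, and omission of each library or of Chow 2 with Chow 3. For likeness and ratio spread the last was added after the data were seen. Fits were tested on simulated data.

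The 6 miRNAs and the lists were chosen with earlier results of these data known. All 6 are reported, beside fixed lists of 5 other Hox-cluster miRNAs and 5 relatives, and for likeness the 3 nearest other miRNAs to each of miR-10b-5p, miR-10a-5p and miR-196b-5p.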

Additional observations from a re-analysis of the deposited data

How the results depend on the processing

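None of the 6 miRNAs passed the adjusted threshold in any setting. None of the 5 ratios did either. Settings that left out Chow 2 and Chow 3 together or used the replicate block could not pass (smallest p 0.1 and 0.25). Nor could those without a single library (0.1 without a Chow and 0.0667 without an HFD library). With all libraries the smallest permutation p is 0.0286, so a ratio could not pass unless another also had a p under 0.05. That no ratio passed therefore says nothing about stability or about the threshold. The number of miRNAs past the adjusted threshold over the whole table was 11 with TMM and edgeR, 18 with RLE scaling, 39 with library size only, 62 without a filter, 50 with DESeq2, 23 with the replicate block, 0 without Chow 2 and Chow 3, and 0 to 32 when single libraries were left out. The cause was not tested. The log2 fold change of miR-10a-5p turned positive with RLE scaling (0.065), library size (0.28), TMM without miR-148a-3p (0.031), no filter (0.33), DESeq2 (0.065) and the replicate block (0.42), and that of miR-10b-5p with library size (0.20), no filter (0.26) and the replicate block (0.33). The median of all tested miRNAs was 0.088 with RLE scaling, 0.31 with library size, 0.052 without miR-148a-3p, 0.56 without a filter, 0.093 with DESeq2 and 0.21 with the block, and miR-10a-5p lay below it in all of these except the block. Leaving out single libraries gave -0.27 to 0.31 for miR-10a-5p and -0.34 to 0.23 for miR-10b-5p. miR-10a-3p turned to -0.14 without Chow 2 and Chow 3. The miR-196 ratio was -0.32 with the replicate block and -0.50 to 0.89 with single libraries left out. All other directions of the 6 miRNAs and 5 ratios held. Deviations of same-numbered libraries had r = 0.067, -0.16 and 0.035, within the -0.20 to 0.31 of differently numbered ones. The last 2 values rest on the shallow Chow 2 and Chow 3, so whether the number marks a pairing cannot be decided from them. Depth limits miR-196 and both partner strands in Chow 2 and Chow 3.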
